A study of Mus musculus with 6 samples.

Results

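Lysosomal hydrolases and membrane proteins were examined as a module of 36 listed genes, out of 30409 gene identifiers, in RNA-seq of mouse bone marrow cells gated as LT-HSCs, the long-term haematopoietic stem cells. The genes were taken from a list, matched by symbol through their Ensembl identifiers, and all 36 were found. They were divided by role into 11 cathepsins and other peptidases, 10 glycosidases, 9 membrane proteins, and 6 lipid hydrolases and lumenal cofactors. The 4 groups compared, each of 1 library, were irradiated Twist1 cKO, irradiated wild type (WT), Twist1 cKO at steady state and WT at steady state. TWIST1 is a transcription factor of the basic helix-loop-helix class, and cKO stands for conditional knockout of its gene. All mice were C57BL/6, the irradiated cells were taken 12 days after irradiation, and all cells were sorted as Lineage−Sca1+cKit+CD34−Flk2−. The Cre driver, the radiation dose, the age and sex of the mice and the number of mice behind each library are not given in the sources used here. Since each group is a single library, no difference could be set against a spread between replicates, and none was tested.

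Lysosomes are acidic organelles in which hydrolases break down proteins, glycans and lipids delivered by endocytosis, phagocytosis and autophagy. Most soluble hydrolases are tagged with mannose 6-phosphate in the Golgi and carried to the lysosome by sorting receptors, while a proton pump, the V-ATPase, keeps the lumen acidic and heavily glycosylated membrane proteins line its inner face. Many lysosomal genes carry a motif around CACGTG near their start, which the transcription factors TFEB and TFE3 bind. Macrophages are rich in lysosomes, and in haematopoietic stem cells lysosomal activity has been tied to the balance between quiescence and activation.

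The deposited values are FPKM, which relate reads to gene length and library depth, so levels can be set side by side between genes, while levels between libraries also depend on how the libraries are scaled. Reads recovered from these values totalled 20349832 and 24743747 in the irradiated cKO and WT libraries, and 22127571 and 25100818 in the steady-state cKO and WT libraries. The 95% intervals below come from these reads and cover counting error only, not the spread between mice. The targeted gene, Twist1, had 0 and 5 reads in the irradiated cKO and WT libraries and 2 and 6 reads in the steady-state cKO and WT libraries, too few to check the genotype labels closely. All 13 genes of an LT-HSC marker list were lower in the irradiated than in the steady-state library of each genotype. Ly6a, which encodes Sca1 of the sorting gate, still had 256 and 89.1 FPKM in irradiated cKO and WT cells, against 362 and 534 FPKM in steady-state cKO and WT cells, whereas Procr, a surface receptor of LT-HSCs, had 1.22 and 0.333 FPKM in irradiated cKO and WT cells, against 66.1 and 51.3 FPKM in steady-state cKO and WT cells. The Y-linked Ddx3y had 0.0164 and 0.0521 FPKM in irradiated cKO and WT cells and 12.4 and 10.2 FPKM in steady-state cKO and WT cells, so every comparison of irradiated with steady-state cells also compares libraries that differ in sex-linked transcripts. Of the members, 3 (Lamp2, Gla and Atp6ap1) lie on the X chromosome. In bulk RNA, fewer cells of a type and less RNA per cell cannot be told apart.

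Promoter sequences are shown for 6 members, chosen because they carry the motif of lysosomal genes or, for Cd68, because it differed most between genotypes at steady state and lacks it. RefSeq promoter windows (GRCm38.p6, 250 bases before to 50 after the start) were found for 31 of the 36 members. CACGTG, searched on both strands, stood in the windows of 10 of these 31 members (32.3%), against 8.09% of 27025 genes with a window. The longer TCACGTGAC, on either strand, stood in 4 of 31 (12.9%), against 0.895% of all. The general E-box CANNTG, of which these motifs are all special cases, stood in 26 of 31 (83.9%) and in 75% of all windows. By role, CACGTG was in the windows of 4 of 9 peptidases, 4 of 10 glycosidases, 2 of 7 membrane proteins and 0 of 5 lipid hydrolases and cofactors. The stretches below run from 200 bases before to 20 after the start. Capitals mark TCACGTGAC on either strand in Ctsa, Ctsd, Mcoln1 and Gla, and CACGTG in Lamp1, where it occurs 4 times, while Cd68 has no capitals because neither motif was found. A second CACGTG of Mcoln1 is left in lower case. Ctsa has 2 windows in the table, and the one with the motif is shown.
Ctsa, chr2:164833573-164833792, plus strand: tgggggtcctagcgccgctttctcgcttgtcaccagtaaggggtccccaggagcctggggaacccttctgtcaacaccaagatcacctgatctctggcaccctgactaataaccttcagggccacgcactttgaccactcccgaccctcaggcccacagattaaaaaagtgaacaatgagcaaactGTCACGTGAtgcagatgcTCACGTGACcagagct
Ctsd, chr7:142387808-142388027, minus strand: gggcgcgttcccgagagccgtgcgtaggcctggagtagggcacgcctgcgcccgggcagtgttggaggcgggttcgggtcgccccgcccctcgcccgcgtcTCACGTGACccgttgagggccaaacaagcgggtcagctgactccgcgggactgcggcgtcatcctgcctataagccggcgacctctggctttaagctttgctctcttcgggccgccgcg
Mcoln1, chr8:3500319-3500538, plus strand: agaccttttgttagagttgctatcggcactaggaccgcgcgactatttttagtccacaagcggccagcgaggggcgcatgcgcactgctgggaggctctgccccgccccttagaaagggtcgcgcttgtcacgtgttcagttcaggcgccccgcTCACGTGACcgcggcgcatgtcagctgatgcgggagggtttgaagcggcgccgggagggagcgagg
Gla, chrX:134600986-134601205, minus strand: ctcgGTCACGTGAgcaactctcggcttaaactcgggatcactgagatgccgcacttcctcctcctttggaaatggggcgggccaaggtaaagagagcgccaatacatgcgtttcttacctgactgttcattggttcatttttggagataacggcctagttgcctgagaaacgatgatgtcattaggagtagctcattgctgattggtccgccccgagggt
Lamp1, chr8:13158961-13159180, plus strand: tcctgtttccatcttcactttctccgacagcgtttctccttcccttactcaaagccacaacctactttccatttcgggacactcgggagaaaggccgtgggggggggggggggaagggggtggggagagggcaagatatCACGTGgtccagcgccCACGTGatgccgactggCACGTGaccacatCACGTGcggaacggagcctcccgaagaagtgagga
Cd68, chr11:69666151-69666370, minus strand: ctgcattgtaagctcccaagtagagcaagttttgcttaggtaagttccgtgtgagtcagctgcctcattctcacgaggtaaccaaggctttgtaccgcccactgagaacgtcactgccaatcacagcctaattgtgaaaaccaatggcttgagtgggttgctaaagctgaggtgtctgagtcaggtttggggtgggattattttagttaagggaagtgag
A match says only that these letters are in the window, and binding at them was not measured in the values used here.

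Of the peptidases, 4 were at 100 FPKM or more in each library. Ctsd, the aspartic protease cathepsin D, had 552 and 341 FPKM in irradiated cKO and WT cells and 245 and 450 FPKM in steady-state cKO and WT cells. Ctsb, the cysteine protease cathepsin B, had 357 and 214 FPKM in irradiated cKO and WT cells and 148 and 306 FPKM in steady-state cKO and WT cells. Ctss, cathepsin S, which trims the invariant chain of MHC class II in antigen-presenting cells, had 243 and 144 FPKM in irradiated cKO and WT cells and 173 and 365 FPKM in steady-state cKO and WT cells. In all 3 the cKO library was the higher of the irradiated pair and the lower of the steady-state pair. Ctsz, a carboxypeptidase, had the same order, but its irradiated libraries were close to each other. It had 317 and 308 FPKM in irradiated cKO and WT cells and 150 and 215 FPKM in steady-state cKO and WT cells.

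Lower in abundance, Lgmn, the asparaginyl endopeptidase legumain that processes cathepsins, had 31.9 and 16.9 FPKM in irradiated cKO and WT cells and 14.3 and 30.8 FPKM in steady-state cKO and WT cells. Ctsh, an aminopeptidase, had 16.0 and 7.86 FPKM in irradiated cKO and WT cells and 12.0 and 19.99 FPKM in steady-state cKO and WT cells. Ctsc, the dipeptidyl peptidase that activates granule serine proteases, had 56.0 and 40.3 FPKM in irradiated cKO and WT cells and 32.6 and 51.6 FPKM in steady-state cKO and WT cells. These 3 crossed over between the conditions in the same way as Ctsb. Ctsl, cathepsin L, had 41.9 and 37.7 FPKM in irradiated cKO and WT cells and 63.6 and 66.2 FPKM in steady-state cKO and WT cells, lower in both irradiated than in both steady-state libraries. Ctsa, which also protects β-galactosidase and neuraminidase 1, and Tpp1, a tripeptidyl peptidase, lay between 30.6 and 49.5 FPKM in all 4 libraries. Ctsk, the collagenase of osteoclasts, was low throughout, at 0.708 to 1.14 FPKM.

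The glycosidases, which cleave sugars from glycans and glycolipids, were less abundant, with medians of 9.88 and 13.1 FPKM in irradiated cKO and WT cells and 20.3 and 18.3 FPKM in steady-state cKO and WT cells. Hexa, the α subunit of β-hexosaminidase, was the highest, at 62.4 and 52.2 FPKM in irradiated cKO and WT cells and 75.8 and 97.9 FPKM in steady-state cKO and WT cells. Glb1, β-galactosidase, had 10.04 and 13.9 FPKM in irradiated cKO and WT cells and 23.6 and 18.9 FPKM in steady-state cKO and WT cells, so its order between genotypes was the reverse of that of Hexa in both conditions. Naglu, which removes N-acetylglucosamine from heparan sulphate, had 2.92 and 2.11 FPKM in irradiated cKO and WT cells and 8.09 and 7.91 FPKM in steady-state cKO and WT cells. Gla, α-galactosidase A, went the other way with irradiation, with 6.22 and 8.77 FPKM in irradiated cKO and WT cells and 3.03 and 3.24 FPKM in steady-state cKO and WT cells. Gusb, β-glucuronidase, was also higher in both irradiated libraries, with 28.4 and 37.1 FPKM in irradiated cKO and WT cells and 25.5 and 24.1 FPKM in steady-state cKO and WT cells. Gaa, the acid glucosidase that degrades glycogen, had 9.71 and 12.3 FPKM in irradiated cKO and WT cells and 19.6 and 17.6 FPKM in steady-state cKO and WT cells. Man2b1, an α-mannosidase, had 13.5 and 13.9 FPKM in irradiated cKO and WT cells and 21.1 and 25.3 FPKM in steady-state cKO and WT cells, so both enzymes were lower in the irradiated libraries. Fuca1, an α-fucosidase, lay at 32.8 to 42.3 FPKM, Neu1, a sialidase, at 6.81 to 10.6 FPKM, and Manba, β-mannosidase, at 1.08 to 3.11 FPKM.

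The membrane proteins spanned the widest range. Cd63, a tetraspanin of late endosomes and of platelet and other secretory granules, had 233 and 175 FPKM in irradiated cKO and WT cells and 772 and 760 FPKM in steady-state cKO and WT cells, and was the highest member at steady state. Cd68, a LAMP-family glycoprotein abundant in macrophages, had 203 and 124 FPKM in irradiated cKO and WT cells and 79.7 and 208 FPKM in steady-state cKO and WT cells. Lamp1, the major structural glycoprotein of the lysosomal membrane, had 200.3 and 202 FPKM in irradiated cKO and WT cells and 149 and 208 FPKM in steady-state cKO and WT cells. Of these 3, Cd63 was divided by irradiation, Cd68 crossed over between genotypes, and Lamp1 was lowest in the steady-state cKO library.

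Lamp2, which takes part in the fusion of autophagosomes with lysosomes, had 8.22 and 8.66 FPKM in irradiated cKO and WT cells and 15.5 and 15.6 FPKM in steady-state cKO and WT cells. Mcoln1, the calcium channel of the lysosomal membrane, had 3.26 and 4.18 FPKM in irradiated cKO and WT cells and 7.24 and 5.84 FPKM in steady-state cKO and WT cells. Both were lower in the irradiated libraries. Atp6ap1, an accessory subunit of the V-ATPase, was nearly level, with 53.6 and 61.2 FPKM in irradiated cKO and WT cells and 61.1 and 62.4 FPKM in steady-state cKO and WT cells. Atp6v0d2, a d subunit of the V-ATPase known from osteoclasts and macrophages, had 3.28 and 1.93 FPKM in irradiated cKO and WT cells and 0.219 and 0.226 FPKM in steady-state cKO and WT cells. Scarb2, the receptor that carries β-glucocerebrosidase to the lysosome, lay at 4.65 to 7.60 FPKM, and Npc1, the membrane partner of Npc2 in cholesterol export, at 0.181 to 1.28 FPKM.

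Among the lipid hydrolases and lumenal cofactors, Psap, the precursor of the saposins that present sphingolipids to their hydrolases, had 265 and 126 FPKM in irradiated cKO and WT cells and 69.9 and 148 FPKM in steady-state cKO and WT cells. Grn, progranulin, a secreted and lysosomal protein processed into granulins, had 61.2 and 32.8 FPKM in irradiated cKO and WT cells and 64.6 and 95.3 FPKM in steady-state cKO and WT cells. Both were higher in the cKO library after irradiation and lower in it at steady state. Npc2, the soluble cholesterol carrier, had 46.1 and 47.1 FPKM in irradiated cKO and WT cells and 43.2 and 57.9 FPKM in steady-state cKO and WT cells. Asah1, acid ceramidase, had 21.8 and 14.8 FPKM in irradiated cKO and WT cells and 42.8 and 44.0 FPKM in steady-state cKO and WT cells. Lipa, the acid lipase of cholesteryl esters and triglycerides, had 22.3 and 22.0 FPKM in irradiated cKO and WT cells and 17.0 and 26.4 FPKM in steady-state cKO and WT cells. Ppt1, a palmitoyl thioesterase, lay at 30.8 to 41.0 FPKM.

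**Figure D1:**
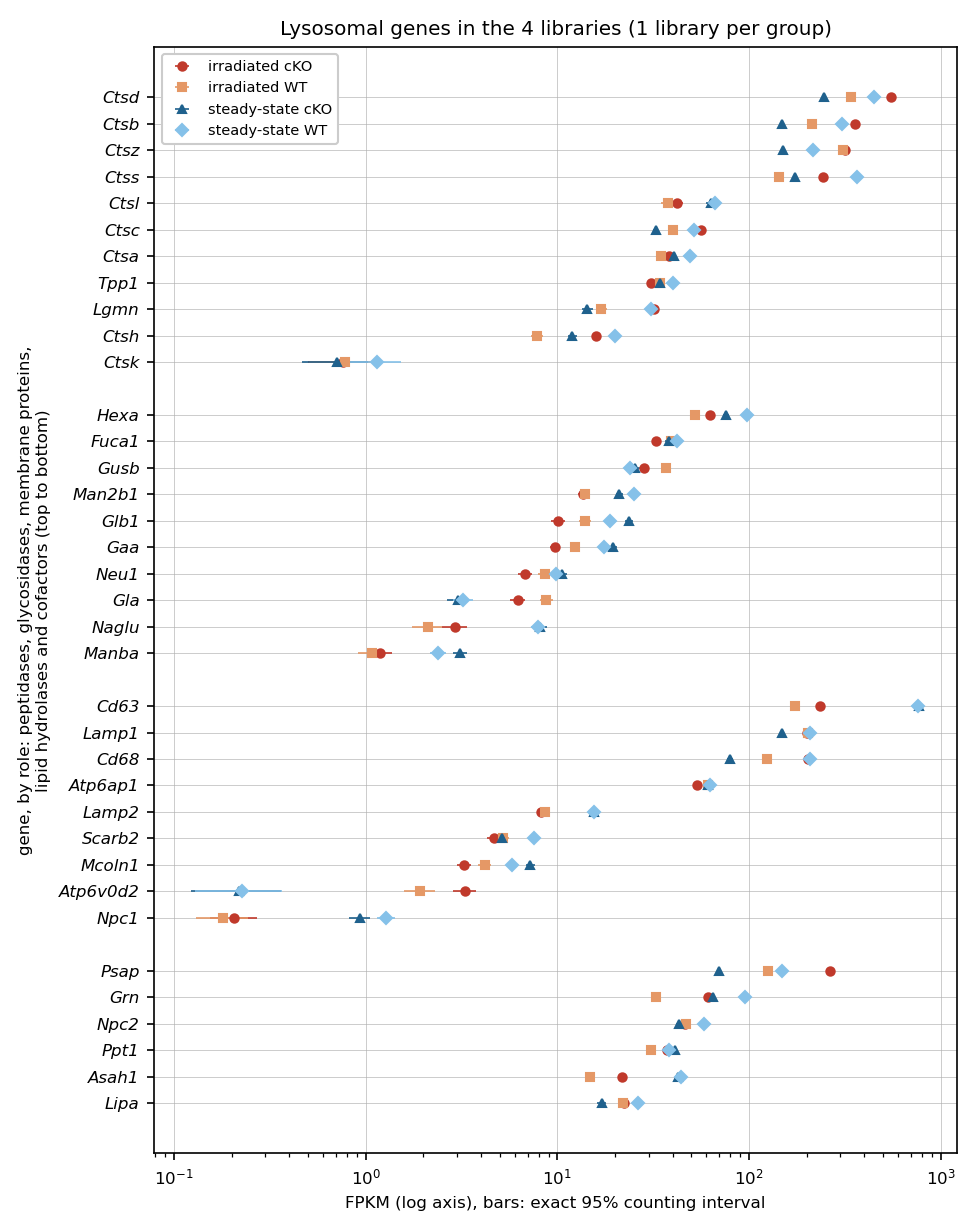
Levels of the 36 members in the 4 libraries, as FPKM on a log axis, 1 point per library with a bar for its 95% counting interval, grouped by role. Ctsd reached 552 FPKM in irradiated cKO cells and Cd63 reached 772 FPKM in steady-state cKO cells, while Npc1, Ctsk and, at steady state, Atp6v0d2 lay near or below 1 FPKM.

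At steady state, several peptidases and members of other roles, among them Cd68, Psap and Lipa, were lower in cKO than in WT cells. The glycosidases differed by at most 1.30-fold. Folds are ratios of FPKM. Cd68 was 2.60-fold lower (2.49 to 2.73), Lgmn 2.15-fold lower (1.98 to 2.34) and Psap 2.12-fold lower (2.04 to 2.19) in cKO cells. Ctss was 2.11-fold lower (2.04 to 2.17), Ctsb 2.06-fold lower (2.02 to 2.098) and Ctsd 1.83-fold lower (1.80 to 1.87). Ctsh, Ctsc and Lipa were lower by 1.67-fold (1.56 to 1.78), 1.58-fold (1.52 to 1.64) and 1.55-fold (1.44 to 1.66), and Grn and Scarb2 by 1.48-fold each. In the other direction, Manba was 1.30-fold higher (1.14 to 1.47), Glb1 1.25-fold higher (1.15 to 1.35) and Mcoln1 1.24-fold higher (1.15 to 1.34) in cKO cells. On GRCm38 these genes lie apart from each other: Cd68 (ENSMUSG00000018774) at chr11:69664213-69666170, Lgmn (ENSMUSG00000021190) at chr12:102394082-102439728, Psap (ENSMUSG00000004207) at chr10:60277628-60302600, Ctss (ENSMUSG00000038642) at chr3:95526786-95556405 and Ctsb (ENSMUSG00000021939) at chr14:63122462-63145923. The spans of Ctsb and Ctss overlap another annotated gene.

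Counts of members were taken on the log2(FPKM + 1) scale among genes with a mean of at least 5 FPKM over the 4 libraries, which kept 6589 genes, called all genes below, and 32 members. The added 1 makes a fold on this scale somewhat smaller than the ratio of FPKM. The 4 below it were Ctsk, Manba, Npc1 and Atp6v0d2. At steady state, 5 of 32 members (15.6%) were at least 2-fold lower in cKO cells, against 2.64% of all genes, and 0 of 32 were at least 2-fold higher, against 0.592%. At 1.5-fold, 9 of 32 (28.1%) were lower, against 5.28% of all genes, and 0 were higher, against 1.53%. Leaving the 50 most abundant genes out of the scale, or scaling to the recovered read totals, left 1 of 32 members (3.12%) at least 2-fold lower, near the 2.06% and 2.19% of all genes under these scalings. Over all 36 members the median log2 difference was −0.25, against 0.00 over all genes. It was −0.64 over the peptidases and −0.48 over the lipid hydrolases and cofactors, and 0.06 over the glycosidases and −0.03 over the membrane proteins. Under all 5 scalings (as deposited and 4 others) and with a counting interval clear of no difference, 19 members were lower and 5 higher, and these 5 were Glb1, Gaa, Manba, Mcoln1 and Ppt1. No share of all genes was counted under these conditions, here or in the comparisons below, so such counts have no background.

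Macrophage markers were lower in the same library: the summed FPKM of 12 macrophage genes was 469 in steady-state cKO and 1527 in steady-state WT cells, and each of the 12, which include the complement genes C1qa, C1qb and C1qc, was lower in cKO cells. The erythroid list summed to 627 and 1518 FPKM in steady-state cKO and WT cells, with 9 of 9 genes lower in cKO cells, and the B and plasma cell list to 3072 and 5522 FPKM, with 9 of 10 lower. All 9 genes of the bone and marrow stroma list were lower in cKO cells as well, at sums of 82.0 and 144 FPKM in steady-state cKO and WT cells. Only 4 of these 9 reached the 5 FPKM minimum. Bglap, Bglap2 and Col1a1 had 5, 8 and 2 reads in steady-state cKO and 7, 9 and 11 reads in steady-state WT cells. The neutrophil sum went the other way, at 3693 and 2991 FPKM in steady-state cKO and WT cells. Of its 12 genes 9 were higher in cKO cells, while Elane, Mpo and Prtn3 were lower. The monocyte list summed to 192 and 336 FPKM in steady-state cKO and WT cells, with 3 of 7 genes lower in cKO cells, and the LT-HSC list to 916 and 1026 FPKM, with 4 of 13 lower. The part of these cells in the lower lysosomal transcripts was not tested.

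After irradiation several peptidases and cofactors were higher in cKO than in WT cells. Psap was 2.099-fold higher (2.04 to 2.16), Ctsh 2.03-fold higher (1.87 to 2.22) and Lgmn 1.88-fold higher (1.74 to 2.05). Grn was 1.86-fold higher (1.78 to 1.96), Atp6v0d2 1.70-fold higher (1.35 to 2.15) and Ctss 1.69-fold higher (1.63 to 1.76). Ctsb, Cd68 and Ctsd were higher by 1.67-fold (1.64 to 1.70), 1.64-fold (1.57 to 1.71) and 1.62-fold (1.59 to 1.65), and Asah1 by 1.47-fold (1.37 to 1.59). Among the glycosidases Gla was 1.41-fold lower (1.25 to 1.59), Glb1 1.39-fold lower (1.24 to 1.55) and Gusb 1.30-fold lower (1.22 to 1.39, with a sign that turned with the scaling) in irradiated cKO cells, whereas Naglu was 1.39-fold higher (1.10 to 1.76) and Hexa 1.19-fold higher (1.13 to 1.26).

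Of 32 members, 1 (3.12%), Psap, was at least 2-fold higher in irradiated cKO cells, against 3.22% of all genes, a share near the background, and 0 were at least 2-fold lower, against 0.835%. Ctsh, at 2.03-fold by ratio, was just under 2-fold on the log2(FPKM + 1) scale. At 1.5-fold, 8 of 32 (25.0%) were higher, against 6.25% of all genes, and 0 were lower, against 22.9%. The 8 were Ctsb, Ctsd, Ctsh, Ctss, Lgmn, Cd68, Psap and Grn. The count at 2-fold was also 8 when values were scaled by the upper quartile, without the 50 most abundant genes, or to recovered reads, where 5.15%, 5.53% and 5.46% of all genes were 2-fold higher. The median of all genes in this comparison was −0.43 as deposited and −0.06 without the 50 most abundant genes, so the scale of the values shifts every gene. Over the 36 members the median was 0.06, and it was 0.46 over the peptidases, 0.40 over the lipid hydrolases and cofactors, −0.01 over the membrane proteins and −0.27 over the glycosidases. Under all 5 scalings and with a counting interval clear of no difference, 17 members were higher and 2, Gla and Glb1, were lower, while the sign of 13 turned with the scaling, among them Lamp1, Lamp2, Gusb, Gaa and Neu1.

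The macrophage list summed to 1615 FPKM in irradiated cKO and 880 FPKM in irradiated WT cells, and each of its 12 genes was higher in cKO cells. Most other blood cell lists had higher sums there too. The neutrophil list summed to 1418 and 461 FPKM in irradiated cKO and WT cells, with 12 of 12 genes higher in cKO cells, and the B and plasma cell list to 4495 and 1531 FPKM, with 8 of 10 higher. The erythroid list summed to 12859 and 6110 FPKM in irradiated cKO and WT cells, with 7 of 9 genes higher. All 8 T and NK cell genes and all 7 monocyte genes were higher in cKO cells, as were 4 of 5 megakaryocyte genes. The LT-HSC list summed to 277 and 112 FPKM in irradiated cKO and WT cells, mostly from Ly6a, with 7 of its 13 genes higher and 6 lower. Of the osteoclast list, Acp5 had 37.5 and 15.3 FPKM in irradiated cKO and WT cells, while Ocstamp, Calcr and Oscar were at or near 0. The part of these cell types in the higher lysosomal transcripts was not tested.

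**Figure D2:**
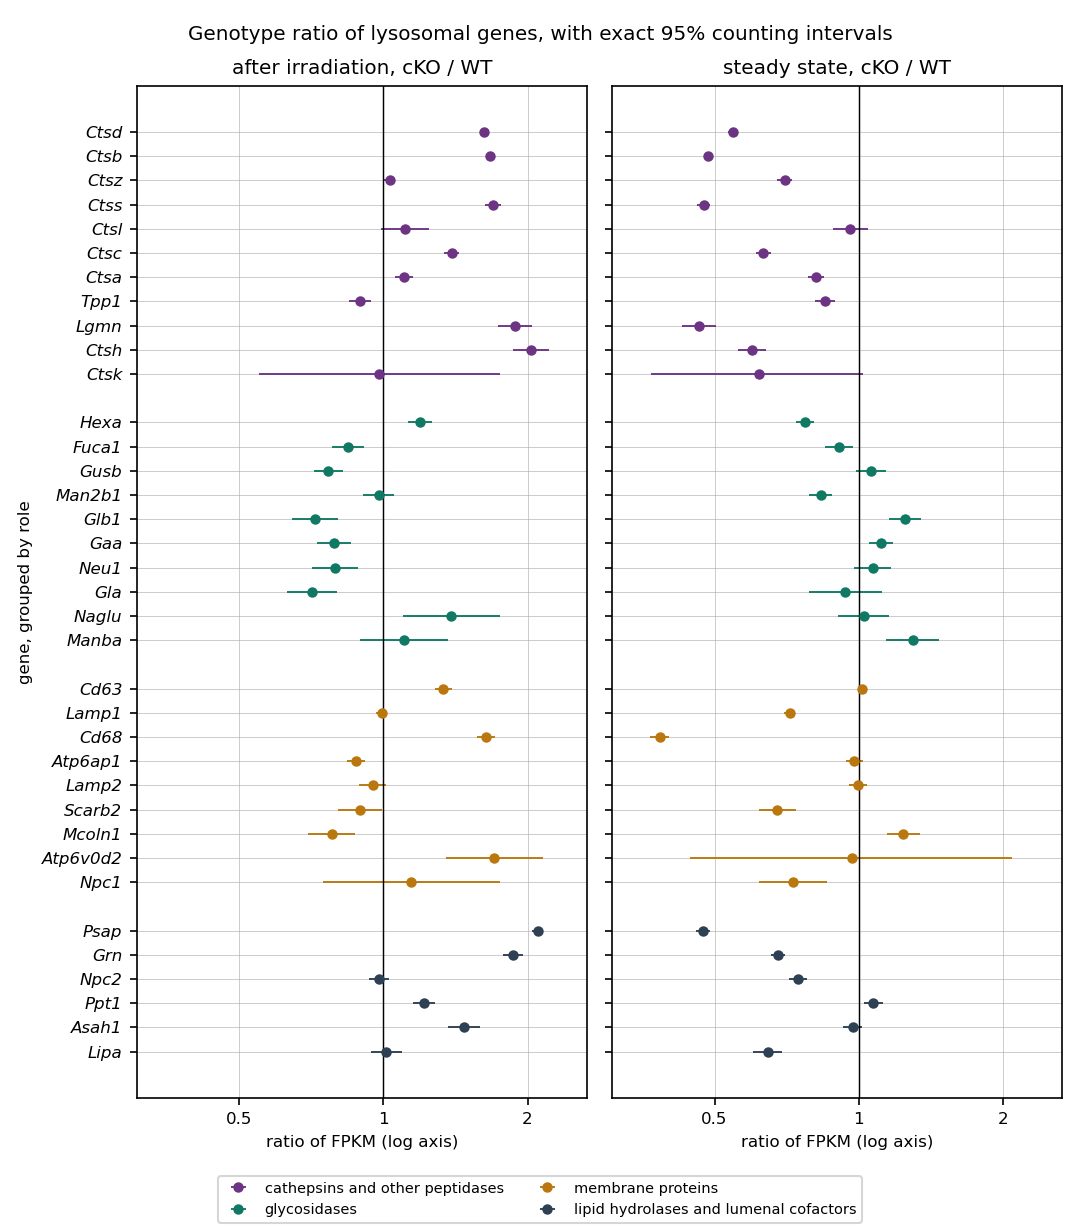
Ratio of FPKM in cKO over WT cells for each of the 36 members, on a log axis, after irradiation and at steady state, with bars for the 95% counting interval. Psap lay at 2.099 after irradiation and 0.473 at steady state, and Cd68 at 1.64 and 0.384, whereas Glb1 lay at 0.721 and 1.25.

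Between irradiated and steady-state cells, 9 members, 6 of them peptidases, differed with opposite sign in cKO and WT cells under all 5 scalings and with both counting intervals clear of no difference. Many glycosidases and membrane proteins were lower in irradiated cells of both genotypes. In cKO cells, Psap was 3.79-fold higher (3.67 to 3.91) in the irradiated than in the steady-state library. Cd68 was 2.55-fold higher (2.44 to 2.68), Ctsb 2.41-fold (2.37 to 2.45), Ctsd 2.25-fold (2.21 to 2.30), Lgmn 2.23-fold (2.05 to 2.42) and Ctsz 2.11-fold higher (2.04 to 2.18). Atp6v0d2, from a low level, was 15.0-fold higher (8.89 to 27.3), and Gla 2.05-fold higher (1.75 to 2.40). Lower in irradiated cKO cells were Npc1 by 4.52-fold (3.34 to 6.22), Cd63 by 3.31-fold (3.21 to 3.41), Naglu by 2.77-fold (2.34 to 3.30), Manba by 2.62-fold (2.22 to 3.10), Glb1 by 2.35-fold (2.13 to 2.60), Mcoln1 by 2.22-fold (2.01 to 2.45) and Gaa by 2.02-fold (1.88 to 2.17).

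At 2-fold, 6 of 32 members (18.8%) were higher in irradiated than in steady-state cKO cells, against 9.23% of all genes, and 3 of 32 (9.38%) were at least 2-fold lower, against 18.7%. At 1.5-fold the counts were 8 (25.0%) higher, against 20.6% of all genes, and 9 (28.1%) lower, against 30%, both near the background. The median over the 36 members was −0.10, against −0.12 over all genes, and under the other scalings it moved with the median of all genes, to 0.14 against 0.13 with the median of ratios and 0.27 against 0.27 with the upper quartile. By role it was 0.49 over the peptidases, 0.01 over the lipid hydrolases and cofactors, −0.19 over the membrane proteins and −0.58 over the glycosidases.

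In WT cells most members were lower in the irradiated library. Npc1 was 7.08-fold lower (5.15 to 9.96), Cd63 4.35-fold lower (4.205 to 4.50), Naglu 3.75-fold lower (3.08 to 4.60), Asah1 2.98-fold lower (2.79 to 3.19) and Grn 2.90-fold lower (2.78 to 3.03). Ctss and Ctsh were each 2.54-fold lower, Hexa 1.87-fold lower (1.78 to 1.97), Lgmn 1.82-fold lower (1.68 to 1.97) and Cd68 1.67-fold lower (1.60 to 1.74). Ctsb and Ctsd, which were over 2-fold higher in irradiated cKO cells, were 1.43-fold (1.40 to 1.45) and 1.32-fold (1.30 to 1.34) lower in irradiated WT cells. Higher in irradiated WT cells were Atp6v0d2 by 8.52-fold (5.03 to 15.4), Gla by 2.71-fold (2.35 to 3.13), Gusb by 1.54-fold (1.44 to 1.65) and Ctsz by 1.44-fold (1.40 to 1.48).

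At 2-fold, 6 of 32 members (18.8%) were lower in irradiated than in steady-state WT cells, against 15.9% of all genes, and 1 of 32 (3.12%), Gla, was at least 2-fold higher, against 19.7%. At 1.5-fold, 12 (37.5%) were lower, against 23.4% of all genes, and 2 (6.25%) were higher, against 36.5%. The median over the 36 members was −0.44, against 0.27 over all genes, with −0.51 over the peptidases, −0.45 over the glycosidases, −0.47 over the membrane proteins and −0.30 over the lipid hydrolases and cofactors. Under all 5 scalings and with a counting interval clear of no difference, 28 members were lower and 4 (Ctsz, Gla, Gusb and Atp6v0d2) higher in irradiated WT cells, while 14 were higher and 12 lower in irradiated cKO cells. These are the same 4 libraries as in the genotype comparisons. The macrophage sum was 1615 FPKM in irradiated and 469 FPKM in steady-state cKO cells, and 880 FPKM in irradiated and 1527 FPKM in steady-state WT cells. The LT-HSC sum was 277 FPKM in irradiated and 916 FPKM in steady-state cKO cells, and 112 FPKM in irradiated and 1026 FPKM in steady-state WT cells. The erythroid sum was 20.5 times as high in irradiated as in steady-state cKO cells and 4.03 times as high in irradiated as in steady-state WT cells, and the megakaryocyte sum was 10.01-fold and 21.8-fold lower in the same comparisons. The part of these cells in the differences between irradiated and steady-state libraries was not tested.

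**Figure D3:**
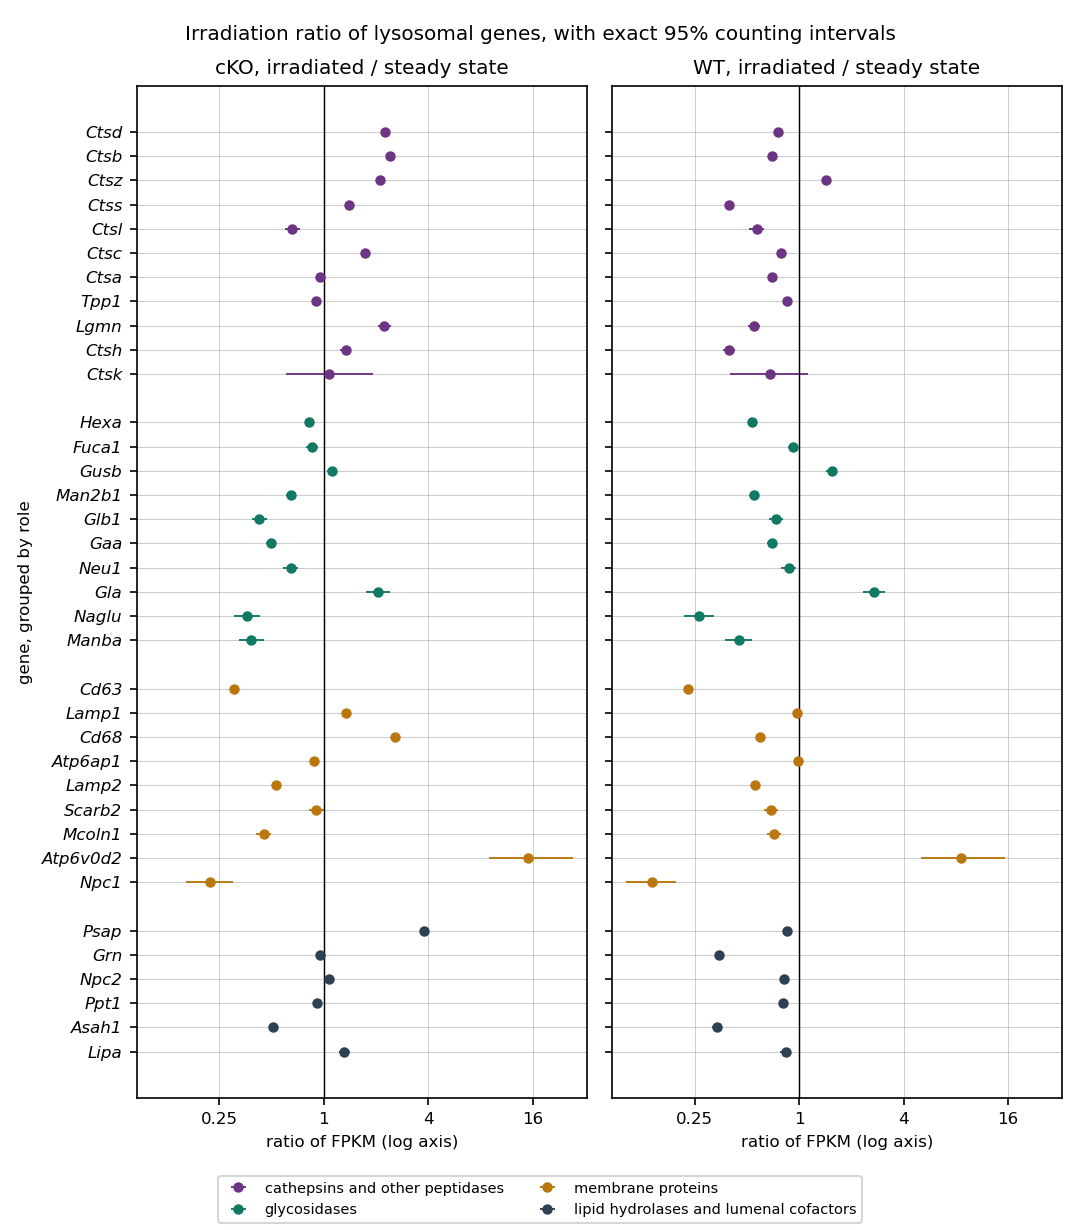
Ratio of FPKM in irradiated over steady-state cells for each of the 36 members, on a log axis, in cKO and in WT cells, with bars for the 95% counting interval. Atp6v0d2 lay at 15.0 in cKO and 8.52 in WT cells, Cd63 at 0.302 and 0.230, and Psap at 3.79 and 0.853.

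Set against each other, the 2 genotype differences gave a difference of differences, the value after irradiation minus that at steady state, on the log2(FPKM + 1) scale. It was largest for Psap (2.13) and Cd68 (2.08), followed by Lgmn (1.93), Ctss (1.82), Ctsb (1.77), Ctsh (1.63), Ctsd (1.57), Grn (1.43) and Ctsc (1.11). These 9 values were positive under all 5 scalings, with the value as deposited the lowest of them. It was most negative for Glb1 (−0.74) and Mcoln1 (−0.55), which stayed below 0 under all 5. As deposited it was negative for 5531 of all 6589 genes. Its median was 0.37 over the 36 members, against −0.42 over all genes, and 1.11 over the peptidases, 0.60 over the lipid hydrolases and cofactors, 0.35 over the membrane proteins and −0.28 over the glycosidases. As deposited, 17 of the 36 members were lower in cKO cells at steady state and higher in cKO cells after irradiation, against 8.21% of the genes kept. The 17 were 9 of 11 peptidases, 4 of 6 lipid hydrolases and cofactors, 3 of 9 membrane proteins and 1 of 10 glycosidases, the last being Hexa. Among the 17, Npc1 and Atp6v0d2 were under the 5 FPKM minimum, and the steady-state sign of Ctsl, Asah1 and Atp6v0d2 turned with the scaling. Taken relative to the median of all genes in each comparison, 26 of 36 members had this pattern, among them all 11 peptidases and 3 of 10 glycosidases, against 21.2% of the genes kept. In both counts the 36 include the 4 members under the minimum, which the genes kept leave out. Each difference of differences rests on 4 single libraries and was not tested.

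Other genes of the lysosomal system are set beside the shares of all genes already given. Of 22 further hydrolases 15 were kept, of which 0 were 1.5-fold apart at steady state, against 5.28% of all genes lower and 1.53% higher, too few to tell from the background, with Pla2g15, a lysosomal phospholipase, at −0.40. After irradiation 2 of the 15 were 1.5-fold higher in cKO cells, against 6.25% of all genes, Pla2g15 (0.73) and Gm2a (0.64), the activator protein of β-hexosaminidase. Between irradiated and steady-state cKO cells, 4 of the 15 were at least 2-fold lower after irradiation, against 18.7% of all genes. Between irradiated and steady-state WT cells, 7 of the 15 were, against 15.9%. Both were led by the cathepsins Ctsf (−2.46 in cKO and −2.74 in WT cells) and Ctso (−1.81 and −2.34). The further V-ATPase subunits (13 of 16 kept) and the genes of mannose 6-phosphate tagging and sorting (8 of 12 kept) held 0 members 1.5-fold apart between genotypes in either condition, where after irradiation 22.9% of all genes were lower and 6.25% higher in cKO cells. The same was so of the list of the TFEB family and of nutrient sensing at the lysosome (8 of 17 kept). Tfeb, Tfe3, Mitf and Tfec were not among the genes kept, so this count says nothing of the TFEB family itself. Of the cystatins and stefins (3 of 7 kept), which inhibit cathepsins, Cst3 (cystatin C) had 788 and 608 FPKM in irradiated cKO and WT cells and 350.3 and 534 FPKM in steady-state cKO and WT cells, a log2 difference of 0.37 after irradiation and −0.61 at steady state. Of 14 further membrane proteins 8 were kept, of which 2 were 1.5-fold higher in irradiated cKO than WT cells, Laptm4b (0.89) and Laptm5 (0.83), against 6.25% of all genes, and 4 were at least 2-fold lower after irradiation in each genotype, against 18.7% of all genes in cKO and 15.9% in WT cells.

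Over whole role groups, the summed FPKM of the 11 peptidases was 1685 and 1179 in irradiated cKO and WT cells and 915 and 1594 in steady-state cKO and WT cells. The sum of the lipid hydrolases and cofactors was 453 and 274 in irradiated cKO and WT cells and 278 and 409.6 in steady-state cKO and WT cells. The peptidase sum was thus 1.43 times as high in irradiated cKO as in irradiated WT cells and 0.574 times as high in steady-state cKO as in steady-state WT cells, and the macrophage sum 1.83 and 0.307 times as high in the same comparisons. The glycosidase sum was 174 and 189 in irradiated cKO and WT cells and 229 and 249 in steady-state cKO and WT cells, with ratios of 0.921 and 0.918 as deposited. With the upper quartile, Psap in irradiated cKO against WT cells went from 1.06 to 1.37, a shift that turns the direction of the first ratio. Ctsb in irradiated against steady-state cKO cells went from 1.26 to 1.68, a shift about as large as the glycosidase difference there (−0.39). As deposited, the order of the peptidase sum was irradiated cKO, steady-state WT, irradiated WT and steady-state cKO. The macrophage sum had this order, while the lipid hydrolase and cofactor sum did not. Of the single peptidases, Ctsb, Ctsc, Ctsd and Lgmn had it, while Ctsz, Ctss, Ctsh, Ctsa, Ctsl, Ctsk and Tpp1 did not. Within the macrophage list, Vcam1, Mertk, Fcna, Marco and Timd4 did not have it. The glycosidase sum was lower in both irradiated libraries as deposited. Without the 50 most abundant genes, Ctss in irradiated against steady-state WT cells went from −1.34 to −1.68. Ctsb in steady-state cKO against WT cells went from −1.04 to −0.84. Shifts of this size put irradiated WT below steady-state cKO in the peptidase sum. The part of macrophages in these sums was not tested.

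**Figure D4:**
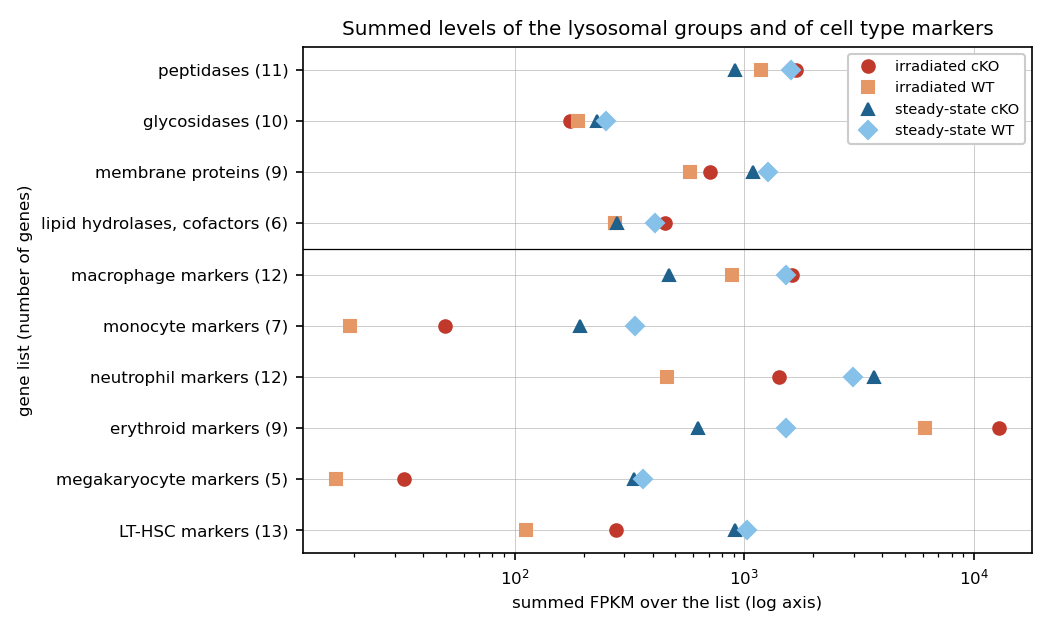
Summed FPKM of the member role groups and of marker lists in the 4 libraries, on a log axis, 1 point per library. As deposited, the peptidase sum (1685, 1179, 915 and 1594 FPKM) and the macrophage sum (1615, 880, 469 and 1527 FPKM) had the same order over irradiated cKO, irradiated WT, steady-state cKO and steady-state WT cells. The lipid hydrolase and cofactor sum (453, 274, 278 and 409.6 FPKM) had another order. The part of macrophages in these sums was not tested.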

How the data were processed

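RNA-seq of 4 libraries was used, 1 per group. The values are FPKM per gene, as deposited by the authors in 1 file per library. Per the submitters' processing notes, the series used the build mm10 and the tools HOMER, MACS2 2.1.0, BWA 0.7.12-r1039 and Bowtie. Which of them made the FPKM values, and whether counting used strand, was not stated there or in the labels, and 12 of the 36 members overlap another annotated gene, so reads of some may be shared (Ctsa, Ctsb, Ctss, Ctsz, Hexa, Glb1, Manba, Lamp2, Scarb2, Npc1, Asah1 and Ppt1). The 2 ATAC-seq samples were not analysed here.

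The members and lists were chosen with earlier results of these data known. Values were used as deposited, with differences taken as log2(FPKM + 1), a minimum mean of 5 FPKM over the 4 libraries, and 2-fold and 1.5-fold thresholds. With 1 library per group no test was run. Whole reads were recovered from the FPKM for all 30409 identifiers, by finding the lowest set of integers that a gene's 4 values allow with 1 constant per library. The constants were 0.895 to 1.15 times the recovered totals, and where the true reads are a multiple of those recovered the interval given is too wide. On simulated data 96.4% of 2304 genes with 30 or more reads and 87.4% of 1595 with fewer came out exact. The simulated reads were drawn around the recovered ones with the same constants, so a wrong factor in the real data would not show. In the irradiated WT library the recovered total (24743747) exceeded the constant (22146433), and why is not known. Intervals are 95% conditional exact binomial intervals for ratios, and cover counting error only. Members 1.5-fold apart or above 50 FPKM were named with values in each library, others by range. Of the other pathway lists the up to 3 genes furthest apart in a comparison could be named, and some genes this rule takes in are not reported here. Alternatives were pseudocounts of 0.1 and 5, other minimum levels, 4 other scalings, the second threshold and the mean over members. Promoters and gene positions are of GRCm38. Python 3.11.15, pandas 2.3.3, numpy 2.4.6 and scipy 1.17.1 were used.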

Additional observations from a re-analysis of the deposited data

Results flagged for a closer look

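The genotype difference (cKO minus WT) was of opposite sign after irradiation and at steady state for 13 members, with each counting interval clear of no difference and the signs held under all 5 scalings. The share of all genes that meet these conditions was not counted. Gaa and Mcoln1 also had opposite signs with clear intervals, but their sign after irradiation turned with the scaling. Each group is 1 library, so none of these differences was tested. The difference of differences (irradiated minus steady state, log2 scale of FPKM + 1) was positive for Psap (2.13), Cd68 (2.08), Lgmn (1.93), Ctss (1.82), Ctsb (1.77), Ctsh (1.63), Ctsd (1.57), Grn (1.43), Ctsc (1.11), Hexa (0.62), Ctsz (0.55) and Ctsa (0.43). For Glb1 it was negative (−0.74), with Glb1 lower in cKO cells after irradiation and higher in them at steady state. By sign alone, as deposited, 43.6% of all genes had the pattern of Glb1 and 8.21% had the opposite pattern. The difference between irradiated and steady-state cells was of opposite sign in cKO and WT cells for Ctsb, Ctsc, Ctsd, Ctsh, Ctss, Lgmn, Cd68 and Psap, with the same values, and for Lipa (0.62), by the same conditions. It was positive in cKO and negative in WT cells for each of these 9. Lamp1 and Npc2 had opposite signs with clear intervals as deposited but not under all scalings.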

How the results depend on the processing

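No paired analysis was possible because each group holds 1 library and the labels give no replicate numbers, and for the same reason no library could be left out. No result changed to a called value of the opposite sign. Members at least 2-fold lower in cKO cells at steady state numbered 5, and 1 without the 50 most abundant genes, 1 with scaling to recovered reads and 9 at 1.5-fold. Members at least 2-fold higher in cKO cells after irradiation numbered 1, and 2 with a pseudocount of 0.1 or the median of ratios, and 8 with the upper quartile, without the 50 most abundant genes, with recovered reads or at 1.5-fold. Members at least 2-fold lower in irradiated than in steady-state cKO cells numbered 3, and 5 and 1 with pseudocounts of 0.1 and 5, 1 at a minimum of 20 FPKM, 1 with the upper quartile, 6 without the 50 most abundant genes and 9 at 1.5-fold. In WT cells the 6 members at least 2-fold lower after irradiation became 12 without the 50 most abundant genes, 10 with recovered reads and 12 at 1.5-fold, and the 1 higher became 0 with a pseudocount of 5, at a minimum of 20 FPKM and without the 50 most abundant genes, and 2 with no minimum and at 1.5-fold. The median over members, cKO against WT after irradiation, was 0.06, and 0.42 without the 50 most abundant genes, and the median difference of differences was 0.37, and 0.65 with the upper quartile. The changes with another scaling or threshold follow from their construction. Depth limits Ctsk, Npc1 and Atp6v0d2 most, whose counting intervals are the widest.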
